A study of Homo sapiens with 5 samples.

Results

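The 7 genes described here encode the cyclin-dependent kinase (CDK) inhibitors of the CIP family (CDKN1A, CDKN1B and CDKN1C, for the proteins p21, p27 and p57) and of the INK4 family (CDKN2A, CDKN2B, CDKN2C and CDKN2D, for p16, p15, p18 and p19). They were chosen by symbol, and each matched 1 gene of the 64252 in the deposited table. RNA had been sequenced from RPE-1 cells, an immortalized human epithelial line derived from retinal pigment epithelium and wild type by the labels, 48 hr after siRNA transfection. In 3 libraries the cells had received a non-targeting control siRNA (siCtrl replicates 1, 2 and 3) and in 2 libraries a pool of siRNAs against FAM53C (siFAM53C replicates 1 and 2), each at 5 µM by the labels and with a lipid reagent. The 1 cell line, the 1 siRNA pool and the 1 control siRNA limit what the groups can stand for, and nothing in the labels says that libraries of a group came from separate cultures, so the p-values measure the spread between these libraries only.

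CDKs drive cells from G1 into S phase once they bind a cyclin, and the inhibitors hold them back in different ways. INK4 proteins bind CDK4 and CDK6 alone and keep the D-type cyclins from joining them. CIP proteins bind cyclin-CDK complexes and block CDK2 in particular, while they can also help cyclin D and CDK4 or CDK6 to assemble. In this way a release from CDK4 and CDK6 can shift p27 towards CDK2. CDKN1A is known for its induction by DNA damage, CDKN1B is known for control of its protein by degradation, CDKN2A and CDKN2B lie side by side in a locus that Polycomb complexes silence, and CDKN2B is known for its induction by TGF-beta.

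The libraries held 19260124 to 25615415 counts, and the 15341 genes with enough counts were compared with the quasi-likelihood test of edgeR, with p-values adjusted over all of them by the method of Benjamini and Hochberg. FAM53C, the targeted gene, had levels of 60.9, 59.7 and 57.6 CPM (counts scaled by TMM factors to a fixed library total) in siCtrl and 14.2 and 22.3 CPM in siFAM53C, which is -1.71 ± 0.19 (SE) as a log2 fold change (edgeR, adjusted p = 0.003625). The libraries also separated in a way that crosses the 2 groups. siCtrl replicate 3 and siFAM53C replicate 2 had more mitochondrial counts (4.51% and 4.79%, against 3.56% to 3.89% in the other 3 libraries). They also had fewer ribosomal protein counts (2.96% and 3.36%, against 3.99% to 4.10%). On the first principal component they lay together (33.7 and 44.9), away from siCtrl replicates 1 and 2 (-31.5 and -47.4). siFAM53C replicate 1 lay in between (0.264). The split was thus read from these same libraries. siCtrl replicate 3 and siFAM53C replicate 2 also share a number in their column names (On_Target3 and fam_3), and the labels do not give its meaning. Values within each side of this split are given below, as siFAM53C replicate 1 minus the mean of siCtrl replicates 1 and 2, and as siFAM53C replicate 2 minus siCtrl replicate 3. Of the markers for the labelled cell type, KRT8, KRT18, MITF and OTX2 lay between 14.0 and 336 CPM in every library, here without TMM factors, TERT lay between 6.23 and 13.1, and RPE65 and TTR, which mark differentiated pigment epithelium, were at 0. CD3E, DES and SOX10 were also at 0, and PTPRC, PECAM1 and VWF were at most 1.04. KRT19, CDH1, EPCAM, RLBP1, TYR, BEST1 and PMEL, markers of epithelia or of pigment epithelium, were at most 1.26, so these defining markers were nearly absent.

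CDKN2B was the inhibitor gene that rose. Its neighbour CDKN2A differed by less than the spread between the libraries, although the genes lie 7602 bases apart on the minus strand of chromosome 9 and are read in the same direction. The promoters of both are shown because the results set these neighbours against each other, and those of CDKN1A and CDKN1B because they code for the CIP members measured here. Each sequence holds the 250 bases before the start of transcription in RefSeq on GRCh38.p14, 5′ to 3′ on the strand of the gene, and capitals mark the GC box, GGGCGG on either strand, a binding motif of SP1.
CDKN2B, chr9:22009306-22009555, minus strand: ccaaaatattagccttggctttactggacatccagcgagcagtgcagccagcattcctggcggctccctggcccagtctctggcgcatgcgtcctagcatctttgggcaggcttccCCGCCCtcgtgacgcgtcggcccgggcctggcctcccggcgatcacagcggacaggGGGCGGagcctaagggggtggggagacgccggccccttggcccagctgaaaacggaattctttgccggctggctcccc
CDKN2A, start of the p16 transcript, chr9:21974858-21975107, minus strand: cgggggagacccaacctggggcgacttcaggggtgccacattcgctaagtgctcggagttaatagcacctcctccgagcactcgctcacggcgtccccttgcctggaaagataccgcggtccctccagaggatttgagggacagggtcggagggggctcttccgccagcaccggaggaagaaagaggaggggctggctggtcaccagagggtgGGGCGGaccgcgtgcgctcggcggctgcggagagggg
CDKN1A, chr6:36678464-36678713, plus strand: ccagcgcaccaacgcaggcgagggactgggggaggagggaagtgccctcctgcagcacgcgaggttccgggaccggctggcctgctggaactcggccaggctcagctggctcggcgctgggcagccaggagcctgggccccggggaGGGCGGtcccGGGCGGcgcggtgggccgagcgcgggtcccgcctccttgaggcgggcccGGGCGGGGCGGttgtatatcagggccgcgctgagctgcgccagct
CDKN1B, chr12:12717118-12717367, plus strand: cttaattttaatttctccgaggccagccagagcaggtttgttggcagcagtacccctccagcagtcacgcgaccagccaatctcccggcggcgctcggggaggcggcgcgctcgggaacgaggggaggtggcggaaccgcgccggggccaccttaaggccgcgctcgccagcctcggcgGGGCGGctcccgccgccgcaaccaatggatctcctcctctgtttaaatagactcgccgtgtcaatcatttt

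The CDKN2B window held 2 GC boxes and the p16 window of CDKN2A held 1, while the window before the other start of CDKN2A, from which ARF is made (chr9:21995325-21995574), held 0. The CDKN1A window held 4, of which the last pair share bases, and that of CDKN1B held 1. Of 35116 RefSeq promoter windows of this length, 42.6% held at least 1, so the letters are common. CCAAT, searched on both strands, was found at 2 places in CDKN1B and in no window of CDKN1A, CDKN2A or CDKN2B.

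**Figure D1:**
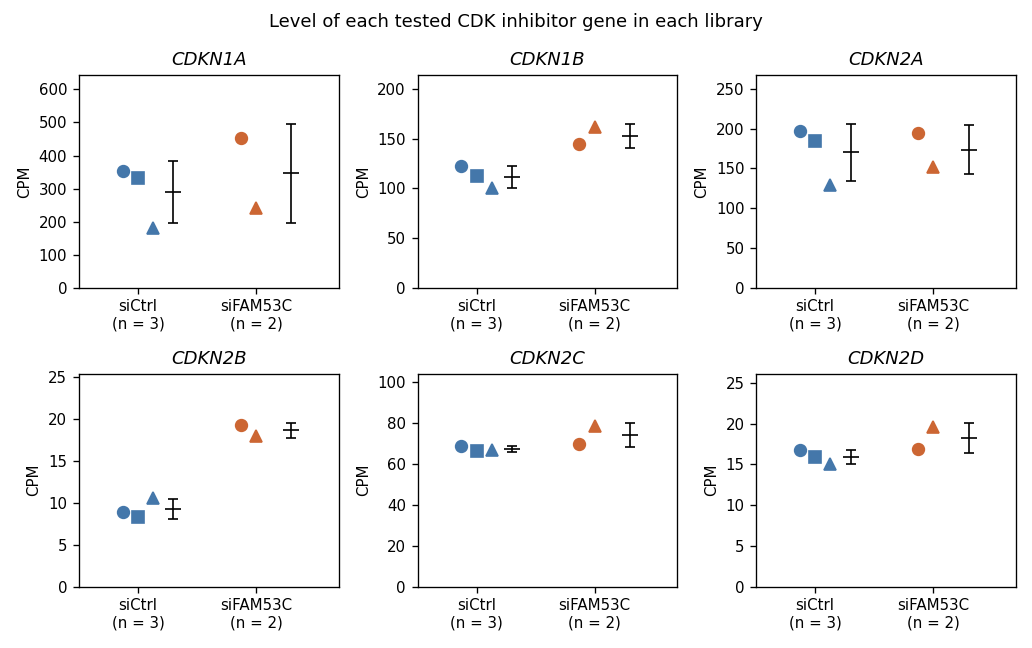
Level of each of the 6 tested genes in each library, in CPM (TMM-scaled, vertical axes from 0), with blue for siCtrl and orange for siFAM53C. Circles, squares and triangles stand for the numbers 1, 2 and 3 in the column names of the table, so that the triangle in orange is siFAM53C replicate 2; black bars give the mean ± SD. The CDKN2B points of siFAM53C (19.3 and 18.0) sit above all those of siCtrl (8.32 to 10.5), whereas the CDKN1A and CDKN2A points overlap.

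Across the 2 groups, 1 of the 6 tested genes was called higher, where 0.489% of all genes tested were, and 0 were called lower, where 3.47% were. At an unadjusted p under 0.05, 2 of the 6 were higher (6.61% of all genes), CDKN2B and CDKN1B, and 0 lower (10.5% of all genes). DESeq2 called 2 higher (2.02% of the genes it tested) and 0 lower (6.98%), and limma-voom 1 higher (0.482% of its genes) and 0 lower (3.35%). The log2 fold change was above 0 for 6 of 6 genes, with a median of 0.23, beside 51.8% of all genes and a median of 0.02. In 4 of the 6, CDKN1B, CDKN2B, CDKN2C and CDKN2D, both siFAM53C libraries lay above every siCtrl library, as they did in 16.7% of all genes tested. The seventh gene, CDKN1C, had too few counts to be tested.

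**Figure D2:**
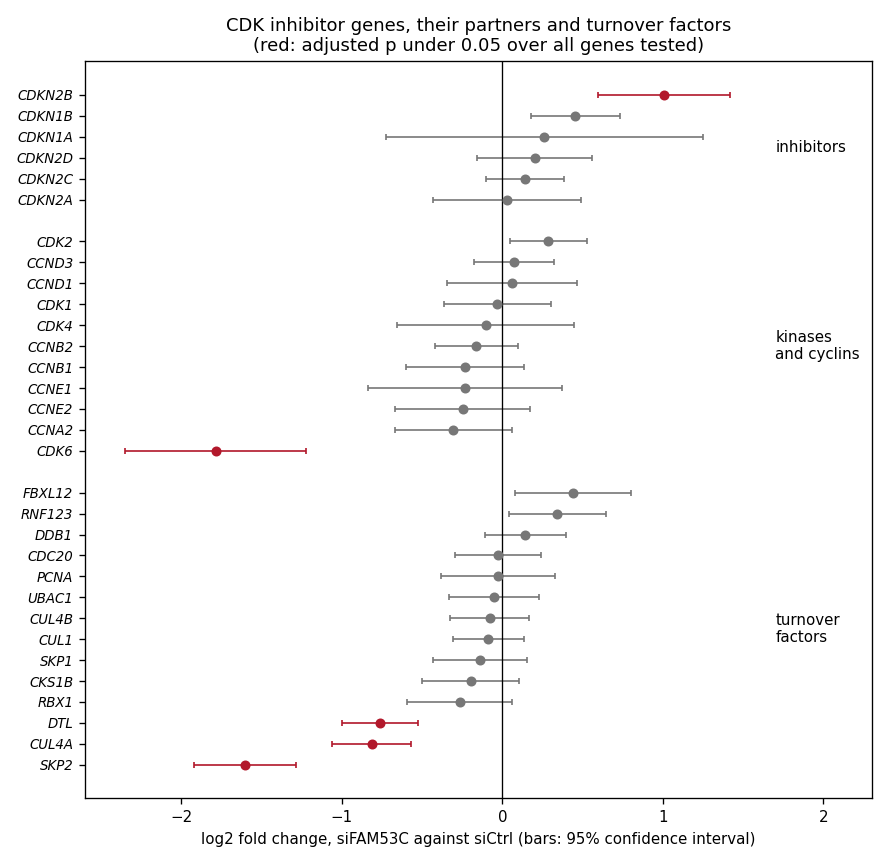
Log2 fold change of siFAM53C against siCtrl (horizontal axis, points) with its 95% confidence interval (bars) for the inhibitor genes, the kinases and cyclins that they bind and the factors that degrade them, by edgeR's quasi-likelihood test; red marks an adjusted p under 0.05. CDKN2B is the red point above 0 (1.01), and CDK6, SKP2, CUL4A and DTL are the red points below it.

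Among the INK4 genes, CDKN2B (ENSG00000147883, chr9:22002903-22009305 of GRCh38, minus strand), which encodes p15, had 210, 159 and 201 counts in siCtrl replicates 1, 2 and 3 and 510 and 424 in siFAM53C replicates 1 and 2. In CPM its levels were 8.91, 8.32 and 10.5, against 19.3 and 18.0. Both siFAM53C libraries were thus higher than all 3 siCtrl libraries, and the gap between the groups was wider than the range within either. CDKN2B rose from 9.25 ± 1.14 (SD, n = 3) to 18.6 ± 0.906 (SD, n = 2) CPM, by 1.01 on the log2 scale (SE 0.18, 95% interval 0.60 to 1.42, edgeR adjusted p = 0.02289). Of the 6 pairs of a siFAM53C and a siCtrl library, 6 had the higher CDKN2B level in siFAM53C, by 0.77 to 1.20 on the log2 scale. On the 2 sides of the split, CDKN2B differed by 1.15 and 0.77. In bulk RNA, more RNA per cell and more cells that make it cannot be told apart, here and in the results that follow.

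Over all genes, 75 were called higher in the reported fit. Without siCtrl replicates 1, 2 and 3 in turn, 9, 6 and 414 were. The call for CDKN2B also depended on which libraries were used. It was lost without siCtrl replicate 1 (0.98, adjusted p = 0.1115), siCtrl replicate 2 (0.94, adjusted p = 0.1163), siFAM53C replicate 1 (0.95, adjusted p = 0.1953) or siFAM53C replicate 2 (1.06, adjusted p = 0.1299), by the same edgeR quasi-likelihood test, and was kept without siCtrl replicate 3 (1.12, edgeR adjusted p = 0.005004). The fold change itself stayed between 0.94 and 1.12 over all 16 fits tried, of which 12 called it. With 159 to 510 counts a library, CDKN2B was the tested member with the lowest level per kilobase.

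CDKN2A (ENSG00000147889, chr9:21967752-21995301 of GRCh38, minus strand), which encodes p16 and, from another first exon and reading frame, ARF, had levels of 197, 184 and 130 CPM in siCtrl and 195 and 152 CPM in siFAM53C. siCtrl replicate 3 was the lowest of the 5 and siFAM53C replicate 2 the next lowest, and the groups overlapped. The means were 170 ± 35.8 (SD, n = 3) and 174 ± 30.4 (SD, n = 2) CPM, and the log2 fold change of 0.03 (SE 0.20, 95% interval -0.43 to 0.49, edgeR adjusted p = 0.9691) leaves room for a change in either direction. Within the split CDKN2A differed by 0.04 and 0.23. Its fold change was below 0 without siCtrl replicate 3 (-0.13) and without siFAM53C replicate 1 (-0.17). The counts are per gene, so p16 and ARF transcripts cannot be told apart here, and 593 exon bases of CDKN2A are shared with CDKN2B-AS1 on the opposite strand. CDKN2B-AS1 itself, the long noncoding RNA also called ANRIL, had 0, 3 and 1 counts in siCtrl and 0 and 13 in siFAM53C and was not tested.

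The neighbours were also compared within each library, where depth and scaling cancel. CDKN2B counts came to 4.53%, 4.52% and 8.13% of CDKN2A counts in siCtrl and to 9.88% and 11.8% in siFAM53C. The ratio was higher in both siFAM53C libraries than in any siCtrl library, and siCtrl replicate 3, where CDKN2A was low, came closest to them. The difference of 0.98 on the log2 scale had p = 0.2 by a two-sided exact permutation test, the smallest p that 3 against 2 libraries can give; this ratio was chosen after seeing the data. The genes are paralogs: of the distinct stretches of 25 bases in CDKN2B transcripts 2.31% also occurred in CDKN2A transcripts, of those of 50 bases 0.78%, and of those of 100 bases 0. Whether reads were placed in the wrong one of these genes was not tested.

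CDKN2C (ENSG00000123080, chr1:50960745-50974634, plus strand), which encodes p18, had levels of 68.6, 65.9 and 66.4 CPM in siCtrl and 69.7 and 78.2 CPM in siFAM53C. The siCtrl libraries lay close together, siFAM53C replicate 1 was just above them and siFAM53C replicate 2 stood higher. The log2 fold change of CDKN2C was 0.14 (SE 0.10, 95% interval -0.10 to 0.39, edgeR adjusted p = 0.5646), with 0.05 and 0.23 within the split, so the difference did not pass the test. CDKN2C shares 617 exon bases with an opposite-strand gene listed by its identifier only.

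CDKN2D (ENSG00000129355, chr19:10566460-10569059, minus strand), which encodes p19 of the INK4 family, was less abundant in CPM. Its levels were 16.7, 15.9 and 14.98 CPM in siCtrl and 16.9 and 19.6 CPM in siFAM53C. Again siFAM53C replicate 1 was just above the highest siCtrl library and siFAM53C replicate 2 was the highest of the 5. The log2 fold change of CDKN2D was 0.20 (SE 0.15, 95% interval -0.16 to 0.56, edgeR adjusted p = 0.5883), with 0.05 and 0.38 within the split. Neither CDKN2C nor CDKN2D was called in any of the 16 fits.

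Among the CIP genes, CDKN1A (ENSG00000124762, chr6:36676460-36687337, plus strand), which encodes p21, varied most between libraries of one group. Its levels were 354, 331 and 182 CPM in siCtrl and 452 and 240 CPM in siFAM53C. Each group had a high and a low side: siCtrl replicate 3 and siFAM53C replicate 2 were the lowest of the 5, and siFAM53C replicate 1 was the highest. The range within a group, 0.96 on the log2 scale in siCtrl and 0.91 in siFAM53C, was wider than the difference between the groups, and the 95% interval of the log2 fold change ran from -0.73 to 1.25 around 0.26 (SE 0.39, edgeR adjusted p = 0.8146). A difference of the size seen for CDKN2B therefore lies inside the interval for CDKN1A. Of the 6 pairs of libraries 4 had the higher CDKN1A level in siFAM53C.

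Compared within the split, CDKN1A was 0.40 higher on the log2 scale on each side. With a term for the split the fold change of 0.40 was called (edgeR adjusted p = 0.001623). That fit called 6.76% of all genes higher and 10.7% lower. The split was read from these same libraries, and those with the lowest CDKN1A lie on the same side of it. On the first principal component siFAM53C replicate 1 lay between the sides. The call therefore gives no independent support for a rise. Without siFAM53C replicate 1 the value for CDKN1A was -0.27 and without siFAM53C replicate 2 it was 0.64, neither of them called. The mitochondrial and ribosomal protein shares given above moved with the low CDKN1A and CDKN2A libraries, and their part in these levels was not tested. CDKN1A shares 146 exon bases with DINOL on the opposite strand.

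CDKN1B (ENSG00000111276, chr12:12685498-12722369, plus strand), which encodes p27, had 2878, 2139 and 1917 counts in siCtrl and 3817 and 3800 in siFAM53C. Its levels were 122, 112 and 100 CPM against 144 and 161 CPM. Every siFAM53C library stood above every siCtrl library, and siCtrl replicate 3 was the lowest while siFAM53C replicate 2 was the highest, so the order did not follow the split. The means of CDKN1B were 112 ± 10.9 (SD, n = 3) and 153 ± 12.0 (SD, n = 2) CPM, with a log2 fold change of 0.45 (SE 0.12, 95% interval 0.18 to 0.73), and the adjusted p of 0.09119 by edgeR's quasi-likelihood test missed the threshold of 0.05. Within the split CDKN1B differed by 0.30 and 0.68. CDKN1B was called by DESeq2 (0.46, adjusted p = 0.02776), without the filter on low counts (0.45, edgeR adjusted p = 0.0196) and with the term for the split (0.46, edgeR adjusted p = 0.002571). A replicate block by column names called it too (0.46, edgeR adjusted p = 0.01027). Leaving out siCtrl replicate 1, 2 or 3 did not give a call (edgeR adjusted p = 0.1461, 0.2826 and 0.05288). Without siFAM53C replicate 1 the log2 fold change was 0.53 and without siFAM53C replicate 2 it was 0.37, and CDKN1B was not called in either fit. Its call thus depended on the test, the terms and the libraries, while its size lay between 0.37 and 0.53 over the 16 fits.

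CDKN1C (ENSG00000129757, chr11:2883213-2885775, minus strand), an imprinted gene for p57, was listed at 0, 0 and 2 counts in siCtrl and at 0 and 0 in siFAM53C. A count of 0 allows up to 3 counts, which is 0.113 to 0.157 CPM in these libraries, and no fold change is given. The listing was not read as absence of the RNA. Genes that nearly all nucleated cells use, chosen after their values were seen, were also listed near 0 in this table: TAP1 had at most 1 count and DAXX 6 to 24 in a library. These genes were not picked for any tie to CDKN1C, and whether its low count has the same cause was not tested. How the counting treated reads that match several places is not given in the sources used here. PHLDA2, of the same imprinted cluster as CDKN1C, had at most 1 count.

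**Figure D3:**
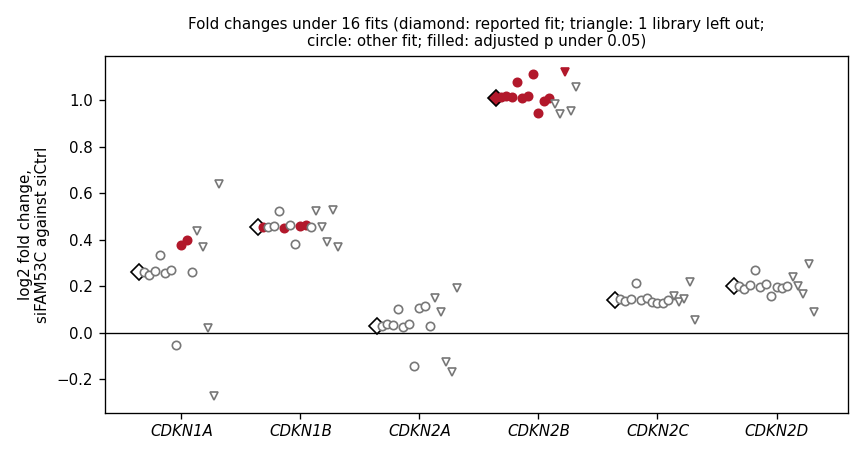
Log2 fold change of siFAM53C against siCtrl (vertical axis) of each tested gene under 16 fits; the diamond is the reported fit, triangles leave out 1 library, circles change another choice, and filled points have an adjusted p under 0.05. CDKN2B stays between 0.94 and 1.12 and is called in 12 fits, CDKN1B stays between 0.37 and 0.53 and is called in 4, and CDKN1A runs from -0.27 to 0.64 and is called in 2.

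Levels of different genes were compared per kilobase of exon, in CPM per kilobase. On this scale CDKN1A was the highest in siCtrl (60.7 to 118), followed by CDKN2A (33.3 to 50.7), CDKN2C (21.9 to 22.7), CDKN1B (10.9 to 13.2), CDKN2D (9.96 to 11.1) and CDKN2B (2.08 to 2.63). Neighbours in this order did not overlap over the siCtrl libraries, with the exception of CDKN1B and CDKN2D. The order in siFAM53C was the same by the means, and CDKN2B stayed the lowest of the 6 at 4.82 and 4.50. Since the exons of CDKN2A and CDKN1B add up to far more bases than their longest transcript (3885 against 1052 and 9255 against 4335), the levels depend on the length used: per kilobase of the longest transcript CDKN2A (123 to 187) and CDKN1A (80.2 to 156) overlapped at the top, CDKN1B (23.2 to 28.2) and CDKN2C (22.7 to 23.6) overlapped below them, and CDKN2B (2.16 to 2.73) was again the lowest.

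**Figure D4:**
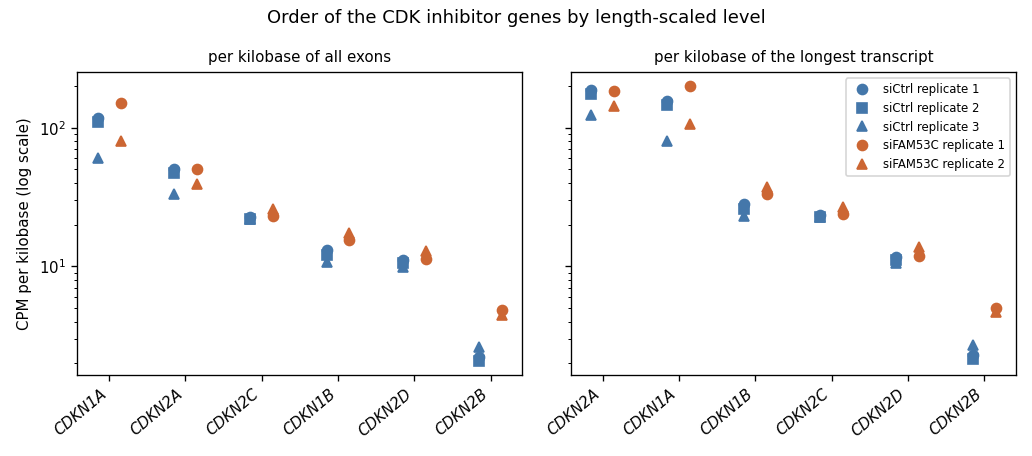
CPM per kilobase (log scale) of the 6 tested genes in each library, with the length of all exons (left) or of the longest transcript (right), ordered by the siCtrl mean. CDKN2B is last in both orders (2.08 to 2.63 in siCtrl on the left), while CDKN1A and CDKN2A change places.

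Within the INK4 family, the share of CDKN2B in the summed level per kilobase of exon was 2.57%, 2.54% and 3.88% in siCtrl and 5.39% and 5.45% in siFAM53C. CDKN2A held 49.1% to 58.4% of the sum in siCtrl and 56.2% and 47.4% in siFAM53C, the lower values being those of siCtrl replicate 3 and siFAM53C replicate 2. In the CIP family CDKN1A made up 84.8% to 90.1% in siCtrl and 90.6% and 82.1% in siFAM53C, and CDKN1B nearly all of the rest. So the member with a called rise remained a minor part of its family's RNA in each library.

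The 6 genes fell into different patterns over the 5 libraries, which share 2 conditions and the split and so give descriptions only. CDKN1A and CDKN2A followed each other (Pearson's r of log2 CPM 0.96, n = 5 libraries), both low in siCtrl replicate 3 and siFAM53C replicate 2. CDKN2C and CDKN2D also followed each other (0.96), as did CDKN1B and CDKN2D (0.94). CDKN2B was nearest to CDKN1B (0.82) and had an r of -0.06 with CDKN2A.

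**Figure D5:**
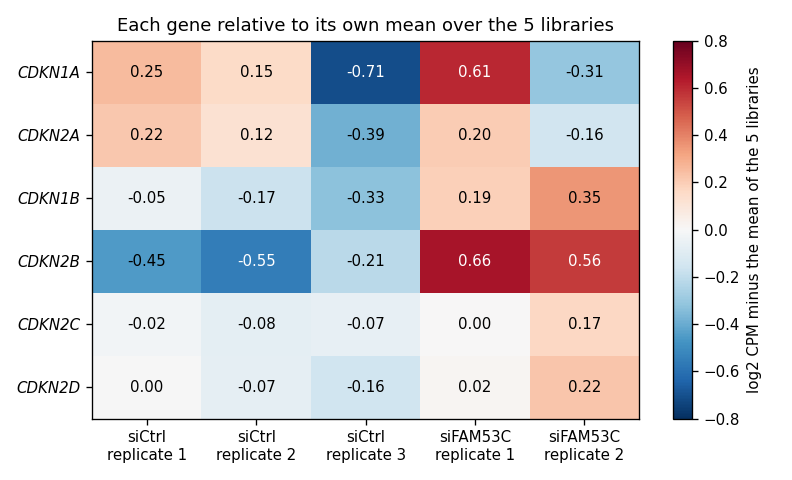
Log2 CPM of each gene in each library minus its own mean over the 5 libraries (colour and printed value; red above the mean, blue below). CDKN1A and CDKN2A are lowest in siCtrl replicate 3 (-0.71 and -0.39). CDKN2B is above its mean only in the siFAM53C libraries (0.66 and 0.56), as is CDKN1B (0.19 and 0.35). The same holds by small margins for CDKN2C (0.0019 and 0.17) and CDKN2D (0.015 and 0.22).

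Over the same 5 libraries, the genes with the most similar log2 CPM among 9300 with a mean of at least 10 CPM were RPAP1 and ANKZF1 for CDKN2B, CDR2L and ZNF512B for CDKN1B, CWC27 and RNPEP for CDKN1A and BLVRB and PFDN2 for CDKN2A. For CDKN2C they were ZNF264 and C12orf29, and for CDKN2D CIB1 and SNHG5. Each had an r above 0.99, but so few libraries give high values readily: 184 genes reached 0.95 with CDKN2B, 222 with CDKN1A and 53 with CDKN2D.

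The kinases and cyclins that the inhibitors bind were then examined. This list held 13 genes, of which 11 were tested, while CCNA1 and CCND2 fell short in counts. The edgeR test called 0 higher, where 0.489% of all genes were, and 1 lower, where 3.47% were. With p under 0.05 before adjustment, 1 was higher (all genes: 6.61%) and 1 lower (all genes: 10.5%). In DESeq2 0 were higher (its genes: 2.02%) and 1 lower (its genes: 6.98%). In limma-voom 0 were higher (its genes: 0.482%) and 1 lower (its genes: 3.35%). The median log2 fold change was -0.16. CDK6, which the INK4 proteins bind, had levels of 142, 155 and 235 CPM in siCtrl and 46.3 and 56.7 CPM in siFAM53C. Both siFAM53C libraries were far below the siCtrl libraries, of which replicate 3 was the highest, and CDK6 had a log2 fold change of -1.78 (SE 0.24, edgeR adjusted p = 0.009757). Its call was lost without siFAM53C replicate 1 (-1.65, edgeR adjusted p = 0.09049). CDK4, the other kinase bound by INK4 proteins, had a log2 fold change of -0.10 (SE 0.23) and CCND1, the gene for cyclin D1, 0.06 (SE 0.17). CDK2, the main target of CIP proteins, had 0.29 (SE 0.10, edgeR adjusted p = 0.2109), CCNA2 -0.30 (SE 0.16), CCNE2 -0.25 (SE 0.18) and CCNE1 -0.23 (SE 0.26), and none of these passed the threshold. The fit that includes the library split called CDK2 higher, and CCNA2 and CCNB1 lower beside CDK6. It called 6.76% of all genes higher and 10.7% lower.

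The 14 factors that mark CIP and INK4 proteins for degradation or act with those that do were all tested. By edgeR's quasi-likelihood test 0 were higher (0.489% of all genes) and 3 were lower (3.47% of all genes). At an unadjusted p under 0.05, 2 were higher (6.61% of all genes) and 3 lower (10.5%). DESeq2 called 0 higher (2.02% of its genes) and 3 lower (6.98%), and limma-voom 0 higher (0.482%) and 3 lower (3.35%). The median was -0.08. SKP2, the F-box protein that brings p27 to its ubiquitin ligase, had levels of 62.3, 67.9 and 57.9 CPM in siCtrl and 22.4 and 18.8 CPM in siFAM53C. The groups were well apart, and SKP2 was lower in siFAM53C, with a log2 fold change of -1.60 (SE 0.14, edgeR adjusted p = 0.001138), and -1.53 and -1.62 within the split. It was called in each of 15 other fits. Its partners SKP1 (-0.14), CUL1 (-0.09), RBX1 (-0.26) and CKS1B (-0.20) were not past the threshold.

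The other 2 belong to the CRL4 ligase, which degrades p21 bound to PCNA in S phase. CUL4A, its scaffold, had levels of 158, 160 and 178 CPM in siCtrl and 94.2 and 93.7 CPM in siFAM53C and fell by 0.81 in log2 terms (SE 0.11, edgeR adjusted p = 0.00637). DTL, which recognizes p21, had levels of 88.6, 87.5 and 90.5 CPM in siCtrl and 51.0 and 53.9 CPM in siFAM53C and fell by 0.76 (SE 0.10, edgeR adjusted p = 0.006995). All siFAM53C libraries lay below all siCtrl libraries for both, as they did in 18.8% of all genes tested. The CUL4A call was lost without siFAM53C replicate 1 (-0.82, edgeR adjusted p = 0.079) or 2 (-0.81, edgeR adjusted p = 0.06646). That of DTL was lost without either of these (-0.73 and -0.80, edgeR adjusted p = 0.09109 and 0.05581) and without siCtrl replicate 2 (-0.77, edgeR adjusted p = 0.0511). For CUL4B, the paralog of CUL4A, the log2 fold change was -0.08 (SE 0.11), and for DDB1, the adaptor, 0.14 (SE 0.11). FBXL12 (0.44, SE 0.16) and RNF123 (0.34, SE 0.13) had the highest values of the list and did not pass. The fit with the split called RNF123 higher, as it did 6.76% of all genes.

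The 7-base sequence GACAAGA, already known from an earlier analysis of these counts as a mark of lower genes, was looked up in the longest annotated 3′ UTR of each gene. It was present once in CDK6, SKP2 and CUL4A, and in none of the 7 inhibitor genes, nor in DTL. Of the 1400 tested genes that held it 15.1% were called lower, against 2.92% of 10675 that did not. Because the sequence was found from these same counts, this contrast gives no independent support. It also takes no account of 3′ UTR length. The 3′ UTRs of CDK6, SKP2 and CUL4A held 10219, 5347 and 3526 bases, those of the inhibitor genes 364 to 3266 and that of DTL 2073. The part of GACAAGA in the lower CDK6, SKP2 and CUL4A levels was not tested.

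Transcription regulators of the inhibitor genes made a list of 25, of which 24 were tested and RING1 fell short in counts. The edgeR test called 0 of them higher, beside 0.489% of all genes, and 0 lower, beside 3.47%. With p under 0.05 before adjustment, 2 were higher, beside 6.61% of all genes, and 1 was lower, beside 10.5%. In DESeq2 1 was higher, beside 2.02% of its genes, and 0 lower, beside 6.98%. In limma-voom 0 were higher, beside 0.482%, and 0 lower, beside 3.35%. The median log2 fold change of the list was 0.01. The gene that DESeq2 called was CBX7, a Polycomb protein known for silencing of the CDKN2A and CDKN2B locus. CBX7 had levels of 1.57, 2.25 and 2.04 CPM in siCtrl and 4.38 and 5.98 CPM in siFAM53C. Both siFAM53C libraries stood above the others, at low counts, and the log2 fold change of 1.41 (SE 0.32) had an adjusted p of 0.05699 by edgeR's quasi-likelihood test and of 0.007751 by DESeq2. Of the others with the largest values, FOXO1 had -1.10 (SE 0.84), ETS2 -0.57 (SE 0.25) and FOXO4 0.51 (SE 0.35). Of the SMAD proteins, which carry the TGF-beta signal, SMAD3 and SMAD4 had 0.26 (SE 0.12) and 0.24 (SE 0.11) and SMAD2 had -0.25 (SE 0.16), none of them past the threshold. Other settings changed calls in this list. With the term for the split, CBX7 and SMAD3 were higher and BMI1, ETS2, KLF6 and SMAD2 lower. That fit called 6.76% of all genes higher and 10.7% lower. Without the filter on low counts CBX7 was higher and ETS2 lower, where 375 of 26587 genes were higher and 961 lower. CBX7 was called without siCtrl replicate 3 (1.45, edgeR adjusted p = 0.03487), but not without siCtrl replicate 1 (1.27, edgeR adjusted p = 0.1942) or 2 (1.52, edgeR adjusted p = 0.1521). It was also not called without siFAM53C replicate 1 (1.61) or 2 (1.16).

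Of the 13 tested genes nearest to the members, 0 were higher (0.489% of all genes) and 0 lower (3.47%) by edgeR's quasi-likelihood test. Their median was 0.07. At an unadjusted p under 0.05, 0 were higher (6.61% of all genes) and 3 lower (10.5%). DESeq2 called 0 higher (2.02% of its genes) and 0 lower (6.98%), and limma-voom 0 higher (0.482%) and 0 lower (3.35%). On the other side of CDKN2A, MTAP, an enzyme of methionine salvage, had 93.8 ± 3.00 CPM (SD, n = 3) in siCtrl, and in siFAM53C 79.1 ± 4.32 (SD, n = 2), with a log2 fold change of -0.25 (SE 0.10). Beyond CDKN2B the next tested gene, DMRTA1, lay 437519 bases away and had -0.26 (SE 0.35). The log2 fold changes were -0.28 and 0.07 for SRSF3 and CPNE5 beside CDKN1A, -0.08, 0.16 and -0.33 for CREBL2, APOLD1 and the overlapping GPR19 at CDKN1B, 0.08 and -0.41 for FAF1 and RNF11 beside CDKN2C, and 0.10 and 0.56 for KRI1 and AP1M2 beside CDKN2D. Beside CDKN1C, KCNQ1OT1 (0.54, SE 0.72) and SLC22A18 (0.49, SE 0.88) were at low counts. RNF11 was called lower without the filter on low counts, without siCtrl replicate 3 and with the term for the split, which also called SRSF3 lower and AP1M2 higher. Over this stretch of chromosome 9, CDKN2B was thus the tested gene past the threshold.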

How the data were processed

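Per the methods, the authors trimmed paired reads with CutAdapt 2.10 (minimum length 25), aligned them to UCSC hg38 with HISAT2 and assigned them to genes with featureCounts; they deposited raw counts per gene, not normalized or filtered. The labels list the build mm10 beside hg38 and an RNA kit other than that of the methods. Reverse strandedness is stated for the alignment only, and the annotation release and the treatment of reads matching several places are not given in the sources used here. The methods name duplicates while the table holds 3 siCtrl libraries, and all 5 were used. Symbols and positions were taken from GENCODE 44 (56105 of 64252 identifiers matched), promoters from RefSeq.

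In R 4.3.3, the deposited counts were filtered (edgeR 4.0.16, filterByExpr, minimum count 10, minimum total 15), scaled by TMM factors and compared by the robust quasi-likelihood test with the condition as the only term, over the 15341 genes left. p-values were adjusted over all of these (Benjamini-Hochberg, threshold 0.05). Alternatives were DESeq2 1.42.0, limma-voom (limma 3.58.1), other size factors and filters, replicate blocks, a term for the library split and leaving out each library; the fit was tested on simulated data. Pairs of replicates differed by more than counting noise (chi-square per gene 9.89 to 47.5), so none was merged. Intervals cover these libraries only, and the counting floor of 3 counts covers counting error only. Genes named from a list are those past the threshold and up to 4 with the largest log2 fold change, the 2 most similar genes and the nearest tested neighbours of each member; others named were chosen after their values were seen. The members, lists and alternatives were chosen with earlier results of these data known. Protein sequences and a CDKN1C promoter were not used here, and 1 regulator of the fixed list is not reported here by name.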

Additional observations from a re-analysis of the deposited data

How the results depend on the processing

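The 6 tested inhibitor genes were refitted under each alternative, and 0 were called lower in any. CDKN2B kept its direction throughout, as did CDKN1B, CDKN2C and CDKN2D. With DESeq2, 890 genes were lower and 257 higher, 2 members were higher and CDKN1B was called (0.46). Without the filter on low counts, 961 were lower and 375 higher of 26587 genes tested, 2 members were higher and CDKN1B was called (0.45). With total counts only, the higher genes numbered 121. Unadjusted p-values under 0.05 gave 1607 lower and 1014 higher genes, and 2 members were higher, CDKN1B among them (0.45). With the term for the library split, 1636 were lower and 1037 higher, and 3 members were higher, with CDKN1A at 0.40 and CDKN1B at 0.46. A replicate block by column names (1 with 1, 3 with 3) gave 1350 lower (8.8%) and 642 higher (4.18%) genes and 3 members higher, with CDKN1A at 0.38 and CDKN1B at 0.46. A replicate block by titles gave 856 lower (5.58%) and 355 higher (2.31%) genes and turned CDKN1A to -0.054 and CDKN2A to -0.14. In the other lists, the block by column names called CCNA2, BMI1, ETS2, KLF6 and RNF11 lower and CBX7 higher, and the block by titles RNF11 lower and CBX7 higher. Nothing in the labels says that a number pairs libraries. The deviations of libraries with the same title number had correlations of 0.17 and -0.28, and with the same column number 0.17 and 0.37. The 2 siFAM53C libraries deviate from their mean by equal and opposite amounts. These correlations are therefore not independent and cannot decide whether a number pairs libraries. Leaving out 1 library gave 157 to 886 lower and 6 to 414 higher genes, 0 to 1 members higher, and log2 fold changes of 0.94 to 1.12 for CDKN2B, -0.27 to 0.64 for CDKN1A and -0.17 to 0.19 for CDKN2A. Per kilobase of the longest transcript, the siCtrl levels were 162 for CDKN2A, 25.7 for CDKN1B, 23.1 for CDKN2C and 11.1 for CDKN2D; without shared exon bases CDKN2C was at 27.9. The cause of these shifts was not tested. With 2 siFAM53C libraries, 1 cell line and 3 residual degrees of freedom, the 95% interval for CDKN1A spans -0.73 to 1.25, CDKN1C lies at the counting floor, and RNA levels do not show protein.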
